A study of Mus musculus with 6 samples.

Results

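The subunits of the transcription factor AP-1 and a small set of immediate-early genes were followed in RAW264.7, an established macrophage-like mouse cell line, with and without itaconate. The 10 members were taken by symbol from the count table of 35976 genes: Fos, Fosb, Fosl1 and Fosl2 of the FOS family, Jun, Junb and Jund of the JUN family, and Egr1, Ier2 and Ier3. All 10 have a row, 9 had a count in at least 1 library, and 8 passed the filter on low counts and were tested among 10636 genes. The members were chosen by name, with earlier results of these data known.

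The control group held 3 libraries of cells with no treatment, and the itaconate group 3 libraries of cells exposed to itaconate for 24 h. Itaconate is a small dicarboxylic acid formed from cis-aconitate in activated macrophages. The labels give neither its dose nor its form, and name no vehicle. Separate cultures are not stated for the replicates, so each p-value measures only the variation among these 6 libraries, part of which may be technical. Each read marks the 3′ end of a polyadenylated transcript, and library totals ran from 5202626 to 6098934 counts. In bulk RNA, fewer expressing cells and less transcript per cell cannot be told apart.

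All 8 macrophage markers examined were detected and tested. Their summed level was 8098 to 9244 CPM (read counts relative to the library total, scaled with TMM factors) in control libraries and 5988 to 6327 CPM in itaconate libraries. Of the 8, 1 was called higher (Cd68, background 10.7% of tested genes) and 5 lower (Csf1r, Cd14, Spi1, Itgam and Fcgr1, background 11.2%). Adgre1 and Lyz2 were not called. Csf1r went from a mean of 3693 to 1837 CPM and Cd14 from 1507 to 777 CPM, so the sum does not describe all markers alike. Of 29 markers of fibroblasts, T cells, B cells, epithelium and neutrophils, 15 were at 0 in every library and 1 was abundant enough to be tested (Lck, not called). Their summed level was 7.15 to 10.2 CPM in control and 6.47 to 11.4 CPM in itaconate libraries. The part of the macrophage marker difference in the results below was not tested.

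AP-1 is a dimer of basic leucine zipper proteins. FOS proteins bind DNA only as partners of JUN proteins, while JUN proteins can also pair with each other, and the pair binds a short palindromic element in promoters and enhancers. Immediate-early genes are switched on within minutes of a signal without new protein synthesis, through MAP kinases, serum response factor (SRF) and CREB, and their transcripts are then destroyed quickly through AU-rich elements in the 3′ untranslated region. In macrophages AP-1 acts with PU.1 and NF-kB at inflammatory enhancers, and EGR1 is a zinc finger factor of monocyte differentiation. Levels after 24 h are therefore those of a long exposure and not of the first burst.

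The members share a compact gene structure that the choice of members did not use. In the GENCODE annotation of GRCm38, the assembly that mm10 names, 10 of 10 members spanned less than the median of the tested genes (24167 bases), from 1240 bases for Ier3 to 22042 bases for Fosl2. Jun, Junb, Jund and Ier2 have a single exon, as do 1.74% of the tested genes with a protein-coding model, whose median is 9 exons. AU-rich elements are built around the pentamer ATTTA, in DNA letters. That pentamer occurs in the 3′ untranslated region of 9 of 10 members and of 70.3% of tested genes. The longer TATTTAT occurs in 7 of 10 members, or 5 of the 8 tested members, and in 30.2% of tested genes. The median pentamer density was 1.80 per kilobase over the members and 1.33 over tested genes. Among members it was highest in Ier3, at 8.16, and in Fos, at 4.91. Ier2 had none.

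The stretches richest in the pentamer are shown for Fos, Jun and Ier3, 3 of the members that differed between the groups. AU-rich elements are the decay signals that this class of transcript is known for. Whether these stretches act in decay was not tested. Each is the 30 bases of the 3′ untranslated region with the most and closest pentamers, 5′ to 3′ on GRCm38, with ATTTA in capitals.
Fos, chr12:85477100-85477129, plus strand: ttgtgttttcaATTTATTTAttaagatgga
Jun, chr4:95049207-95049236, minus strand: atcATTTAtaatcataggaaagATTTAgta
Ier3, chr17:35822484-35822513, plus strand: ctaattaatATTTAtgtATTTAtgtatatc
Fos holds overlapping pentamers, Ier3 holds a close pair, and Jun a wider pair. The pentamer occurs in Fos and Jun, which were lower after itaconate, and in Ier3 and Egr1 (2 pentamers, not printed), which were higher. It also occurs in 70.3% of tested genes, and its part in these differences was not tested.

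The sequences just upstream of the same genes show which short elements lie at each start. RefSeq promoter entries (GRCm38.p6) matched 7 of the 10 members (not Egr1, Ier2 and Fosl1), and the 250 bases before the start were searched on both strands. The motifs were TGACGT, TGACNTCA (which overlaps TGACGT where N is G), TGANTCA, GCGNGGGCG, TGACNNNGC, the CArG box of SRF, the kappaB site of NF-kB and the MEF2 site, with TATAAA on the gene's strand alone. Distances are from the RefSeq start, which for some members differs from the GENCODE start. The window of Jund ends at chr8:70697738, while its GENCODE gene begins at 70698949, so that window does not adjoin the GENCODE start. The window of Fosl2 begins inside a GENCODE exon of that gene, so its matches do not all lie simply upstream of the gene. The stretches below run 5′ to 3′ on the gene's strand, with matches in capitals, and that of Ier3 ends where its GENCODE transcript begins.
Fos, chr12:85473640-85473889, plus strand: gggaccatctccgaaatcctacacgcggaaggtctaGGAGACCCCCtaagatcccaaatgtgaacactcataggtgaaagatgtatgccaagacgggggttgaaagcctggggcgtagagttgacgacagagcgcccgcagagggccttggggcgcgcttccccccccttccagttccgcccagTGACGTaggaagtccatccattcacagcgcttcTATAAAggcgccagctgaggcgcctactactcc
Jun, chr4:95052223-95052472, minus strand: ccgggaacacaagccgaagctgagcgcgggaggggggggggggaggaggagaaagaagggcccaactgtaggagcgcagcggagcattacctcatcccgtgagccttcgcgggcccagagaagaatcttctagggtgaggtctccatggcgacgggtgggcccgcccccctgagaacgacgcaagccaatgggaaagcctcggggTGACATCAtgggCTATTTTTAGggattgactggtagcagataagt
Ier3, chr17:35821463-35821683, plus strand: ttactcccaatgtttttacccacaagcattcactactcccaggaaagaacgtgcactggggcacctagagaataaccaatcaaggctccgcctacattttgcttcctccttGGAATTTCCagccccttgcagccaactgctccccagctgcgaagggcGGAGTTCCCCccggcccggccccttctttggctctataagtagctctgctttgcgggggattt
Fos holds TGACGT, the core of a cyclic AMP response element, 66 bases before the start and TATAAA at 33 bases. TGACGT was found in 6.47% and TATAAA in 7.59% of the 32851 promoters in the table. Jun holds TGACNTCA at 45 bases, found in 7.49% of promoters, and a MEF2 site at 33 bases, found in 2.92%. Ier3 holds kappaB sites at 139 and 92 bases, and 4 of the 7 member promoters held a kappaB site (Fos, Fosb, Fosl2 and Ier3) against 7.38% of all. GCGNGGGCG, the EGR element, was found in 2 of the 7 (Fosb and Fosl2) and in 4.70% of all. No CArG box, TGANTCA or TGACNNNGC, the antioxidant response element core, was found in the 7 windows, against 1.47%, 6.75% and 10.2% of all promoters. With shares this low, finding none in 7 windows does not set the members apart. Sites further upstream than 250 bases, and any site of Egr1, were outside the search. These matches describe letters in a window and do not show binding.

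The comparison asked which members differ between cells exposed to itaconate and untreated cells. Fos and Jun transcripts fell, while Egr1 and Ier3 transcripts rose, and Fosl2, Junb, Jund and Ier2 were not called. Fos fell most, with a level in control libraries 2.87-fold that in itaconate libraries. Called means an adjusted p under 0.05 in edgeR's quasi-likelihood test with Benjamini-Hochberg adjustment over all tested genes. By that rule 4 of 8 tested members, chosen with earlier results of these data known, were called (background 21.9% of tested genes). Of these 2 were higher (background 10.7%) and 2 lower (background 11.2%). The split over all tested genes, 1133 higher and 1191 lower, became 935 and 1429 with library totals in place of TMM, while the members' split stayed at 2 and 2. The median log2 fold change was 0.21 over the 8 members and -0.01 over all tested genes.

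**Figure D1:**
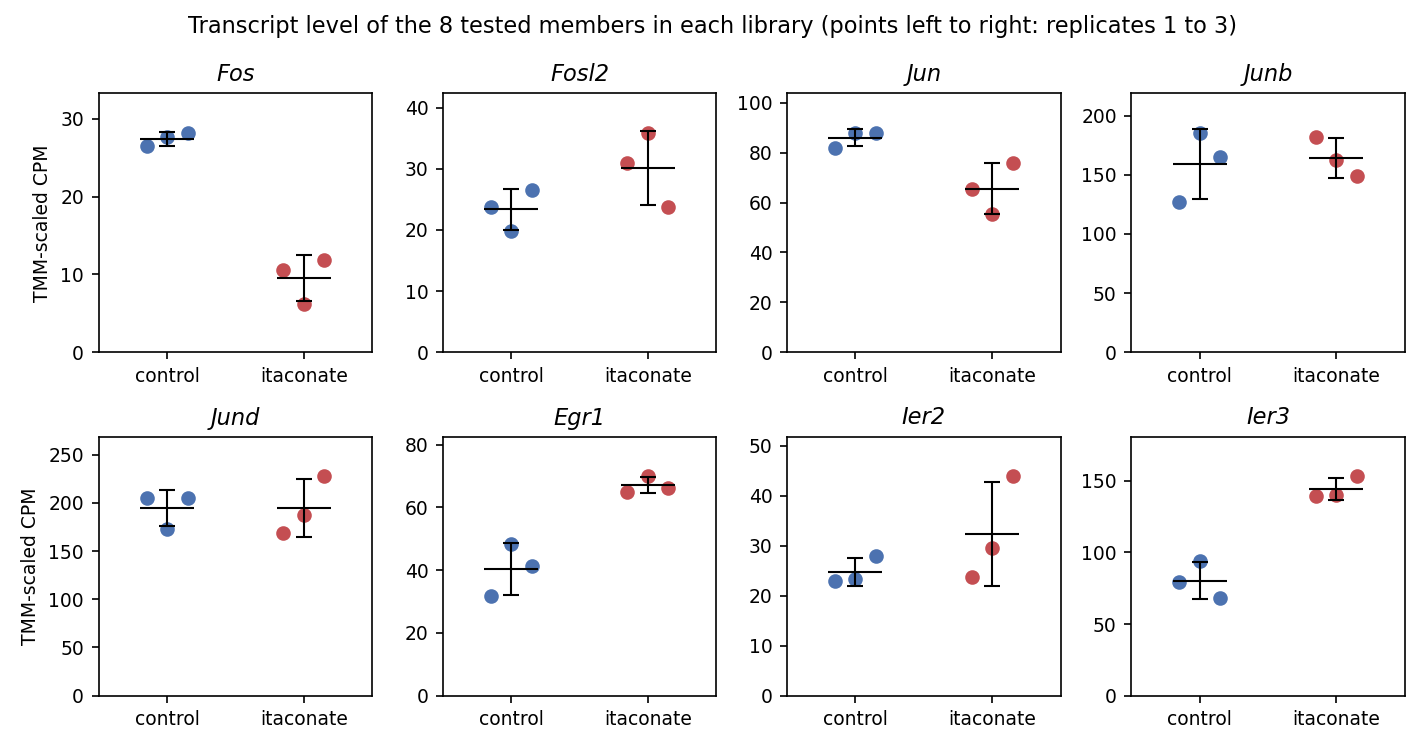
Level of each tested member (vertical axes, TMM-scaled CPM from 0) in the control and itaconate groups, with 1 point per library and the mean and SD of 3 libraries in black. The groups do not overlap for Fos, Jun, Egr1 and Ier3, and overlap for Fosl2, Junb, Jund and Ier2.

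Fos encodes c-FOS, the prototype partner of JUN proteins with a strong activation domain. Its gene lies on chromosome 12 from 85473890 to 85477273. Fos stood at 26.4, 27.6 and 28.2 CPM in the control libraries and at 10.5, 6.17 and 11.9 CPM in the itaconate libraries. All itaconate libraries lay below all control libraries, and itaconate replicate 2 was lowest. The log2 fold change was -1.52 ± 0.25 (SE, edgeR adjusted p = 5.58e-06), with a 95% interval from -2.03 to -1.01. The values rest on 479 control and 157 itaconate counts, and Fos was called under all 13 alternative settings.

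Fosl2 encodes FRA-2, a FOS protein that lacks the strong activation domain of c-FOS and appears later than it after a stimulus. Fosl2 stood at 23.8, 19.8 and 26.5 CPM in control libraries and at 30.9, 35.9 and 23.8 CPM in itaconate libraries. The groups overlapped, since itaconate replicate 3 lay within the control range. The log2 fold change was 0.37 ± 0.20 (SE, edgeR adjusted p = 0.208, 95% interval from -0.04 to 0.78), so a rise of up to 1.72-fold lies within the interval. Without itaconate replicate 2 it was 0.23 (adjusted p = 0.596), and without itaconate replicate 3 it was 0.52 (0.0881).

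Fosb and Fosl1 did not pass the filter on low counts and were not compared. Fosb, whose gene also gives the truncated form delta-FOSB, had 4 counts over the control and 4 over the itaconate libraries. Fosl1, which encodes FRA-1, had 0 counts in all 6 libraries, and a count of 0 allows up to 3 counts per library, or 0.487 to 0.565 CPM (counting error only). All of the last 500 bases of Fosl1 overlap exons of Ccdc85b on the opposite strand, which had 77 to 172 counts per library. The strand setting of the counting is not given, and the part of this overlap in the 0 was not tested.

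Counts within a family do not depend on library scaling. Of all FOS family counts, Fos held 52.5%, 58.2% and 51.01% in control libraries and 25.5%, 14.7% and 32.7% in itaconate libraries. Its mean share was 53.9% ± 3.81 in control and 24.3% ± 9.07 with itaconate (SD, n = 3), without overlap. The exact two-sided permutation p was 0.1, the smallest that 3 against 3 libraries can give, and 0.167 adjusted over 5 shares. Fosl2 made up nearly all the rest, at 45.6% ± 3.37 and 75.1% ± 9.99 (SD, n = 3, exact permutation p = 0.1). The counts behind each share were 292 to 301 in control and 208 to 225 in itaconate libraries, so the exact binomial 95% interval of the Fos share ran from 10.3% to 19.98% in itaconate replicate 2 and from 26.4% to 39.5% in itaconate replicate 3. The family's summed level went from 51.02 ± 3.94 CPM to 39.9 ± 3.11 CPM (SD, n = 3). Thus Fos and Fosl2 took near-equal shares without itaconate, and Fosl2 held the larger share in each itaconate library.

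**Figure D2:**
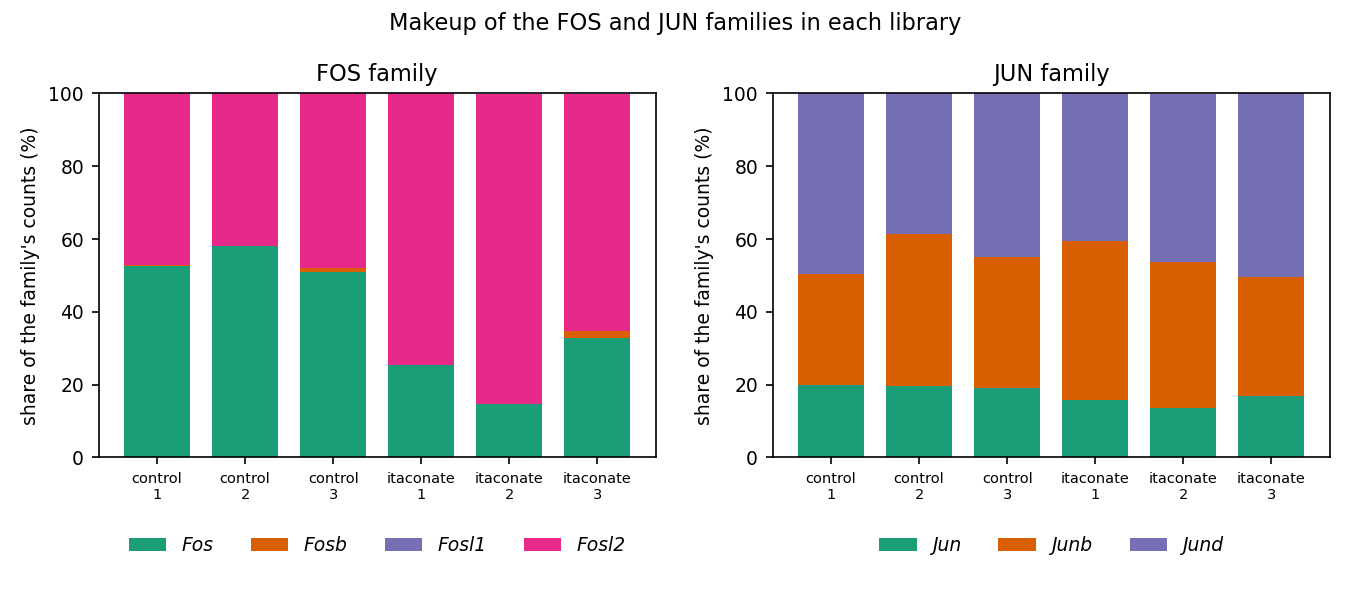
Share of the family's counts (vertical axis, percent from 0 to 100) held by each gene in each of the 6 libraries, for the FOS family on the left and the JUN family on the right. The Fos share is 51.01% to 58.2% in control and 14.7% to 32.7% in itaconate libraries, and the Jun share is lower in every itaconate library than in any control library.

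Jun encodes c-JUN, the partner that JNK phosphorylates and that can drive its own promoter. The gene lies on chromosome 4 from 95049034 to 95052222. Jun stood at 82.0, 87.9 and 87.9 CPM in control libraries and at 65.5, 55.5 and 75.7 CPM in itaconate libraries. The groups did not overlap, and itaconate replicate 2 was lowest, as for Fos. The log2 fold change was -0.39 ± 0.13 (SE, edgeR adjusted p = 0.0263, 95% interval from -0.65 to -0.12). This small difference lost its call without control replicate 2 (0.0888), control replicate 3 (0.0757), itaconate replicate 1 (0.0617) or itaconate replicate 2 (0.201), and with DESeq2 (0.0633), with the same direction each time. Jun exons overlap the antisense gene Junos, which had 17 to 39 counts per library, but not in the last 500 bases of Jun, where 3′ reads fall.

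Junb, whose product often opposes c-JUN, stood at 127.1, 185.3 and 165.3 CPM in control libraries and at 182.1, 162.4 and 148.6 CPM in itaconate libraries. Jund, the JUN gene that is expressed steadily in resting cells, stood at 205.1, 172.8 and 205.6 CPM in control and at 168.7, 187.8 and 227.5 CPM in itaconate libraries. Both overlapped widely. The log2 fold changes were 0.05 (95% interval from -0.18 to 0.27, edgeR adjusted p = 0.829) for Junb and 0.00 (from -0.20 to 0.21, adjusted p = 0.992) for Jund. The sign of both depended on the setting and on single libraries, being negative with library totals in place of TMM (-0.01 and -0.05).

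Within the JUN family, Jun held 19.8%, 19.7% and 19.2% of counts in control libraries and 15.7%, 13.7% and 16.8% in itaconate libraries (exact permutation p = 0.1, adjusted 0.167). Junb held 36.1% ± 5.44 and 38.9% ± 5.51, and Jund 44.4% ± 5.40 and 45.7% ± 4.94 (SD, n = 3, exact permutation p = 0.6 and 0.7). The Jun share varied little among control libraries, while the balance of Junb and Jund varied by about as much within a group as any difference between groups. The family's summed level was 439.7 ± 23.0 CPM without and 424.6 ± 24.2 CPM with itaconate (SD, n = 3). Read counts at the 3′ end depend less on transcript length than whole-transcript counts, which is the ground for setting the genes of a family side by side.

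**Figure D3:**
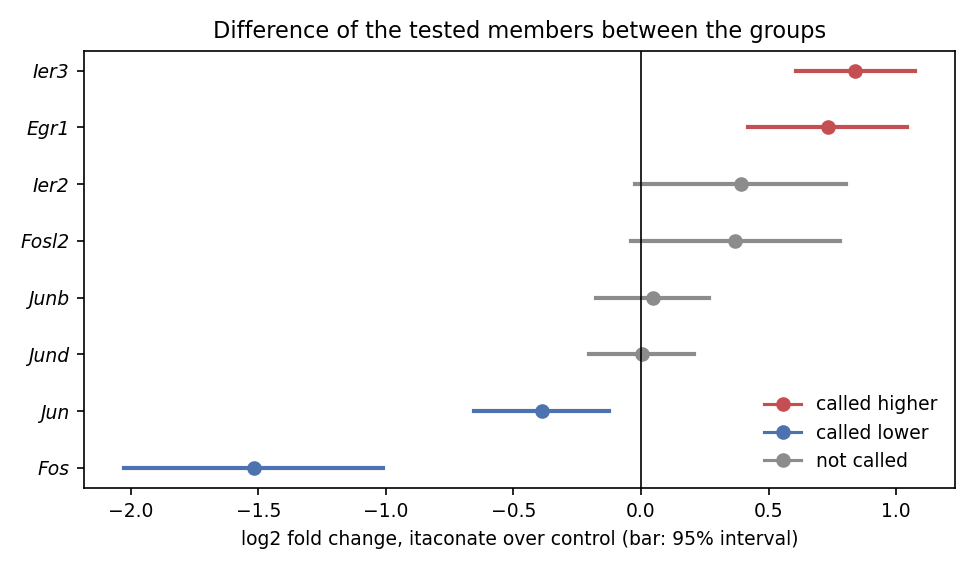
Log2 fold change of itaconate over control (horizontal axis) for the 8 tested members, with the 95% interval as a bar, coloured by whether the gene was called higher, lower or not called. Fos lies at -1.52, Jun at -0.39, Egr1 at 0.73 and Ier3 at 0.84, and the bars of Fosl2, Junb, Jund and Ier2 cross 0.

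Egr1, the zinc finger factor induced through SRF sites by ERK signalling, moved opposite to Fos. Egr1 stood at 31.6, 48.2 and 41.2 CPM in control libraries and at 65.0, 69.9 and 66.3 CPM in itaconate libraries. The groups did not overlap, and the itaconate libraries lay close together while the control libraries spread. The log2 fold change was 0.73 ± 0.15 (SE, edgeR adjusted p = 0.00026), a 1.66-fold difference with a 95% interval from 1.34 to 2.06. The call held under all 13 alternatives.

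Ier3, also called IEX-1, encodes a small protein that is induced by NF-kB, growth factors and stress and modulates ERK signalling and cell survival. Its gene lies on chromosome 17 from 35821684 to 35822923. Ier3 stood at 79.0, 93.7 and 68.3 CPM in control libraries and at 139.3, 139.8 and 153.0 CPM in itaconate libraries. Every itaconate library was higher than every control library. The log2 fold change was 0.84 ± 0.12 (SE, edgeR adjusted p = 1.12e-07), or 1.79-fold with a 95% interval from 1.52 to 2.11. It was called under all 13 alternatives and had the smallest p of the members.

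Ier2, a nuclear immediate-early protein of less well known function, stood at 22.9, 23.4 and 28.0 CPM in control libraries and at 23.7, 29.5 and 43.9 CPM in itaconate libraries. Only itaconate replicate 3 was far above the control libraries. The log2 fold change of 0.39 ± 0.21 (SE, edgeR adjusted p = 0.185, 95% interval from -0.02 to 0.80) became 0.11 without itaconate replicate 3 (adjusted p = 0.814). That library was the highest of its group for 5 of the 8 tested members, and so was control replicate 3 in the control group.

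Groups that did not overlap were seen for 4 of 8 tested members, the same 4 that were called, where the background is 35.6% of tested genes. Itaconate libraries were all higher for 2 of them (background 17.6%) and all lower for 2 (background 17.9%). Over the 6 libraries, log2 CPM of Fos correlated with Jun at a Pearson r of 0.96, with Egr1 at -0.86, with Ier3 at -0.88 and with Fosl2 at -0.79. Egr1 and Ier3 correlated at 0.91. These values describe 6 libraries that share their group difference and carry no test. The mean of the members' standardised levels cancels the opposite directions. The genes most like that mean, among 6427 with at least 20 CPM, included the integrin gene Itgb5 (r = 0.98) and the mitochondrial ribosome gene Mrpl10 (0.97), neither of which was called.

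The genes around AP-1 were described from lists of partners, further immediate-early genes, upstream regulators, feedback inhibitors, decay factors and targets. The same background of 21.9% called holds for all of them. Of the other basic leucine zipper partners, 0 of 5 tested were called at the adjusted threshold with edgeR, and 1, Atf7 (log2 fold change 0.36 ± 0.18), had an unadjusted p under 0.05 (0.0473). Atf3, a stress-induced partner of JUN proteins, stood at 115.3 ± 13.0 CPM without and 110.4 ± 2.67 CPM with itaconate (SD, n = 3). The JUN dimerization protein gene Jdp2 had a log2 fold change of 0.19 ± 0.13. Batf had 0 counts in all libraries.

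Of 17 other immediate-early genes tested, 6 fell, 1 rose and 10 were not called, with a median log2 fold change of 0.00. Plk2, a stress-responsive kinase gene, rose from 4.85, 4.71 and 5.60 CPM to 9.79, 16.4 and 15.4 CPM (log2 fold change 1.46 ± 0.35, edgeR adjusted p = 0.00118). The antiproliferative genes Btg1 and Btg2 fell by 0.50 ± 0.14 and 0.64 ± 0.19 on the log2 scale. Btg1 lost its call without itaconate replicate 1 (adjusted p = 0.0676) and Btg2 without control replicate 3 (0.0602). The others that fell, named after their values were seen, were Egr3 (-2.04 ± 0.63), Klf4 (-0.61 ± 0.19), Trib1 (-1.01 ± 0.37) and Ier5 (-0.25 ± 0.09). Egr3, a relative of Egr1, went from 4.18, 6.66 and 5.97 CPM to 2.64, 0.561 and 0.874 CPM, on 98 control and 22 itaconate counts. Egr1 and Egr3 thus moved in opposite directions, while their relative Egr2 was not called (0.24 ± 0.38, edgeR adjusted p = 0.713). The calls of Egr3, Klf4, Trib1 and Ier5 each depended on single libraries. Egr3 was not called without control replicate 2 (0.0922), control replicate 3 (0.065), itaconate replicate 2 (0.0857) or itaconate replicate 3 (0.0546). Klf4 was not called without control replicate 3 (0.213) or itaconate replicate 3 (0.061). Trib1 was not called without any 1 library except itaconate replicate 1, with adjusted p up to 0.221, and Ier5 kept its call without control replicate 1 or itaconate replicate 3, with adjusted p up to 0.24 elsewhere. With DESeq2 Klf4 (0.056), Trib1 (0.109) and Ier5 (0.0622) were not called, and Ier5 was also lost with limma-voom, RLE factors, the replicate block (0.0555) and no filter on low counts (0.0733), a setting in which Trib1 was not called either (0.051).

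The list of 12 upstream SRF, TCF and CREB regulators also held MEF2 genes and Ets2. Of the 12, 1 rose and 1 fell, and neither was an SRF, TCF or CREB gene. Srf itself had a log2 fold change of -0.11 ± 0.18. Mef2c, a MADS-box factor that can bind the Jun promoter element, fell from 587.9 ± 8.74 to 357.3 ± 25.5 CPM (SD, n = 3; log2 fold change -0.72 ± 0.08, edgeR adjusted p = 6.02e-10). Its relatives Mef2a (-0.02 ± 0.10, edgeR adjusted p = 0.928) and Mef2d (0.10 ± 0.15, 0.698), named after their values were seen, were not called. Any part of Mef2c in the Jun difference was not tested. Ets2, an ERK-responsive ETS factor, rose from 81.8 ± 6.08 to 145.4 ± 11.9 CPM (SD, n = 3; 0.83 ± 0.11, adjusted p = 6.23e-08). Of 23 MAP kinase cascade genes, 3 rose and 3 fell. Mapkapk2, the kinase MK2 downstream of p38, fell from 597.8 ± 38.1 to 351.4 ± 19.8 CPM (SD, n = 3), and the p90 kinase gene Rps6ka1 had a log2 fold change of -0.59 ± 0.13. Map2k6, which activates p38, also fell, but on 45 control and 4 itaconate counts. The ERK1 gene Mapk3 (0.31 ± 0.09), and Map2k1 (0.50 ± 0.15) and Braf (0.42 ± 0.14), which act upstream of ERK, rose. The 17 genes not called included Map2k2 (-0.095 ± 0.11), Map2k3 (-0.0025 ± 0.12) and the p38 gene Mapk14 (-0.20 ± 0.13). Whether the ERK and p38 arms differed as sets was not tested. Map2k1, Braf, Map2k6, Map2k2, Map2k3 and Mapk14 were named after their values were seen. Mapk3 lost its call without itaconate replicate 3 (adjusted p = 0.108), Map2k1 without control replicate 1 (0.0656), Braf without control replicate 1 or 2 or itaconate replicate 1 or 2 (0.0528 to 0.0975), and Map2k6 without control replicate 2 or 3 or itaconate replicate 2 or 3 (0.0515 to 0.147). Map2k6 was also not called with no filter on low counts (0.0584).

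Of 9 tested MAP kinase feedback inhibitors, 2 rose and 2 fell. Dusp4, a nuclear phosphatase of ERK and JNK that ERK signalling induces, went from 12.2, 15.9 and 17.2 CPM to 52.7, 48.4 and 49.7 CPM (log2 fold change 1.74 ± 0.19, edgeR adjusted p = 3.18e-10). Dusp7 had 0.49 ± 0.18 (adjusted p = 0.0492, named after its values were seen), a call lost without any 1 library except itaconate replicate 3 (0.0724 to 0.195), and also with DESeq2 (0.102), the replicate block (0.0648) and 3 other settings. Spred1, an inhibitor of RAS to RAF signalling, had -0.54 ± 0.09, and Dusp3 had -0.29 ± 0.09. Dusp3 lost its call without control replicate 2 (0.0536) or itaconate replicate 1 (0.1). Dusp1, the classic immediate-early phosphatase, was not called (0.49 ± 0.35, adjusted p = 0.36).

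Of 11 tested genes of AU-rich element binding and deadenylation, 3 fell and 0 rose, with a median of -0.25. The decay factor genes Zfp36l1 and Zfp36l2 had log2 fold changes of -0.59 ± 0.15 (edgeR adjusted p = 0.00276) and -0.56 ± 0.20 (0.0338), and Cnot1, the scaffold of the CCR4-NOT deadenylase, had -0.44 ± 0.16 (0.0432). Zfp36, which encodes tristetraprolin, was not called (-0.25 ± 0.20, adjusted p = 0.44). Zfp36l2 lost its call without control replicate 1 or 2 or itaconate replicate 2 or 3 (0.0531 to 0.241), and Cnot1 without any 1 library except itaconate replicate 2 (0.0796 to 0.242). With DESeq2 neither was called (0.0908 and 0.107), and with no filter on low counts Cnot1 was not called (0.0565). Of 7 genes of JUN turnover and coregulation, Ncor1, a corepressor gene, rose (0.30 ± 0.08, adjusted p = 0.005), and lost its call without itaconate replicate 2 (0.0555). The ubiquitin ligase gene Fbxw7, which targets c-JUN, had 0.03 ± 0.12.

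Of 15 tested genes linked to AP-1 in macrophages, 4 rose and 6 fell, with a median of -0.29. Hmox1, the heme oxygenase gene that NRF2 also drives, rose from 91.7 ± 5.93 to 307.6 ± 57.0 CPM (SD, n = 3). The cytokine gene Tnf fell from 47.3 ± 6.48 to 15.9 ± 3.76 CPM and the chemokine gene Cxcl2 from 18.7 ± 6.14 to 1.97 ± 1.75 CPM (SD, n = 3). Named after their values were seen, Vegfa (1.03 ± 0.19), Itgax (1.04 ± 0.22) and Plaur (0.73 ± 0.21) rose. The falls also included the osteopontin gene Spp1 (-0.56 ± 0.09) and the cyclin gene Ccnd1 (-0.73 ± 0.13). Plaur lost its call without control replicate 1 (adjusted p = 0.0569) or itaconate replicate 1 (0.16). Many other factors drive these genes, and the lists were chosen with earlier results of these data known.

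**Figure D4:**
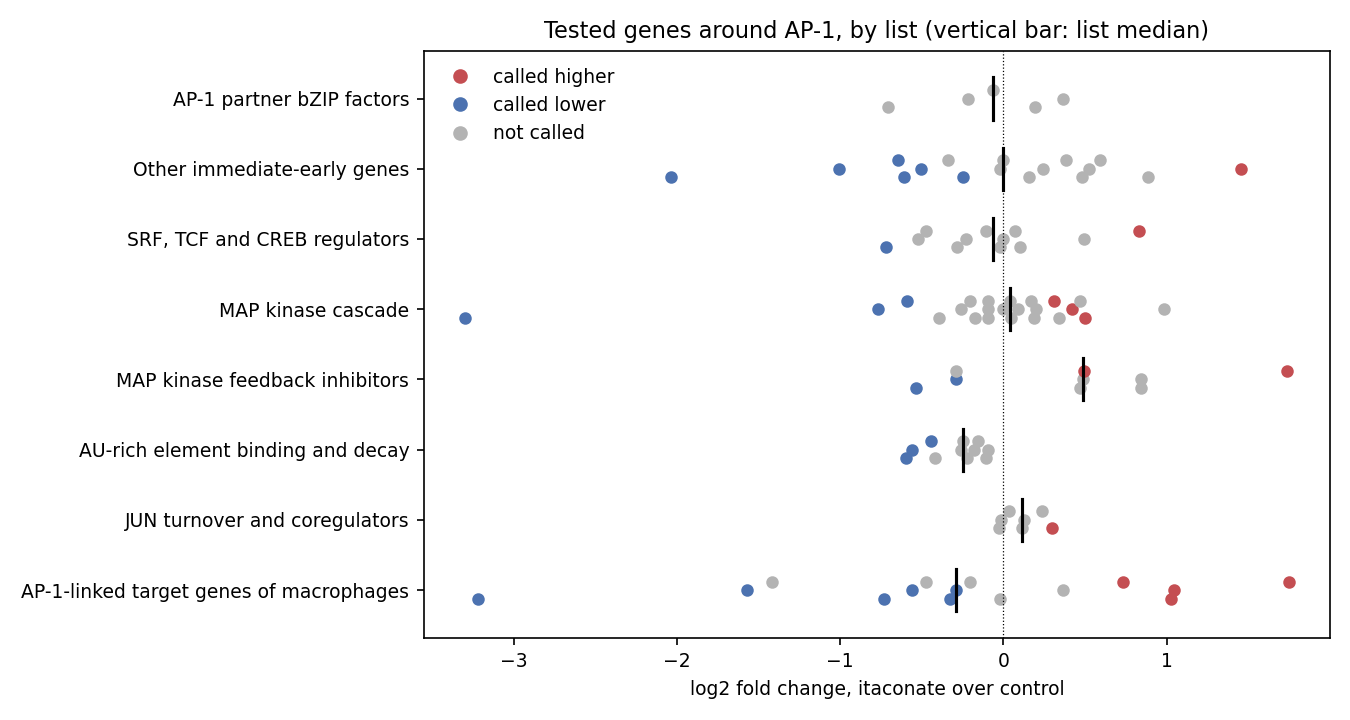
Log2 fold change of itaconate over control (horizontal axis) for each tested gene of the 8 lists around AP-1, with the list median as a vertical bar and points coloured by whether the gene was called. Called genes lie on both sides of 0 in 5 lists, and no partner gene is called.

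Counts of some named genes are less certain because their exons overlap another gene and the strand setting of the counting is not given. This holds for Fosl1 (Ccdc85b), Ncor1 (Ttc19), Rps6ka1, Dusp3, Zfp36l1, Zfp36l2 and Cnot1, each with a gene on the opposite strand, and for Atf7, with Gm28047 on the same strand. Beside the members, the search covered only the genes picked by p from each list, and no other printed gene. For those list genes, overlap within the last 500 bases was not computed. Jund overlaps Gm11175 on the opposite strand, but, like Jun, not in its last 500 bases. No window of 50 bases in the last 500 bases of any member occurred in a transcript of another gene, so the members' 3′ ends can be told apart from their paralogs.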

How the data were processed

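Polyadenylated RNA of 6 RAW264.7 libraries (3 control, 3 itaconate) was prepared with TRIzol and Lexogen's QuantSeq FWD chemistry, as the labels' protocols state. The authors deposited raw read counts per gene symbol. The tools listed in the submitters' processing notes are STAR 2.7.5a, HTSeq 0.6.1 and edgeR, with mm10 as build. For annotation, trimming and strand, the setting is "not given in the sources used here". Header names were assigned to the 6 count columns in order.

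Genes were filtered with edgeR's filterByExpr (minimum count 10, minimum total 15), which kept 10636 genes with 99.7% of counts. TMM scaling and the quasi-likelihood F test (edgeR 4.0.16, limma 3.58.1, R 4.3.3, robust, two-sided, group as the only term) followed, with Benjamini-Hochberg adjustment over all tested genes. The SE is the absolute log2 fold change over the square root of F. Family shares used exact permutation tests. The fit was also run on counts simulated from the control means and its own dispersions. Such counts cannot show whether the model suits these libraries. Alternatives were DESeq2 1.42.0, limma-voom, other scalings and filters, a replicate block and leaving out each library.

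Named genes were the members, the 3 called genes with the smallest p of each list (or the 1 with the smallest p where none was called), and the 3 most alike in pattern, of which 1 is not reported here. Any other list gene printed was chosen after its values were seen. The members and lists were chosen with earlier results of these data known.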

Additional observations from a re-analysis of the deposited data

How the results depend on the processing

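Over the 13 alternatives, Fos, Egr1 and Ier3 kept their direction and their call, with log2 fold changes from -1.71 to -1.29, 0.58 to 0.88 and 0.74 to 0.97. Jun kept its direction (-0.50 to -0.28) and lost its call in 5 alternatives. The 2 members called lower therefore became 1 with DESeq2, and 1 to 2 when single libraries were left out. Members called in all ran from 3 to 4, and genes called in all from 1832 to 2086 without single libraries and from 1952 to 2364 otherwise. Of the members not called, Fosl2 (0.23 to 0.52) and Ier2 (0.11 to 0.57) stayed positive, while Junb and Jund changed sign. Junb became -0.01 with library totals, -0.09 without control replicate 1 and -0.03 without itaconate replicate 1 (from -0.093 to 0.17 over single libraries left out; -0.0068 with library totals). Jund became -0.052 with library totals, -0.00 with the replicate block (-0.0043), -0.08 without control replicate 2 and -0.12 without itaconate replicate 3 (from -0.12 to 0.096 over single libraries left out). The Jund share of JUN family counts, 1.36 percentage points higher with all libraries, became -1.44 without control replicate 2 and -0.951 without itaconate replicate 3, and ran up to 3.96 without itaconate replicate 1. Of 33 called list genes, 17 were called under every alternative, 16 lost the call under at least 1 and 0 of the 34 followed reversed.

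No pairing by replicate number was seen: deviations from the group means correlated at -0.01, 0.02 and 0.04 between same-numbered libraries. With 3 libraries per group, these values cannot show that the samples were unpaired. With the replicate block 2247 genes and 4 members were called, against 2324 and 4 without it. The cause of the lost calls was not tested, though fits without a library hold fewer samples. Fosb (4 counts in each group) and Fosl1 (0) fell below the filter and were not tested.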
